A study of Mus musculus with 8 samples.

Results

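The hedgehog pathway was examined through 9 genes, namely the ligand Ihh, the receptors and coreceptors Ptch1, Smo and Gas1, the inhibitor Sufu, the transcription factors Gli1, Gli2 and Gli3, and the decoy receptor Hhip. They were taken by symbol from the table of raw counts and matched to Ensembl identifiers. Of the 9, 8 had counts among the 16341 genes of the table and 7 passed the filter on low counts that left 11717 genes to test. Gli2 was not analysed here, and Ihh did not pass the filter. The genes were chosen by their place in the pathway with the difference between the sorted fractions already known, and Hhip belongs to a signature that the study selected on these same libraries. Their differences are therefore given as a description without a test. The libraries came from 4T1, a mouse mammary carcinoma line, sorted into 4T1-Sca1+ and 4T1-Sca1- cells on magnetic columns after staining for SCA1, with 4 libraries in each group. Both fractions carry a CD45-negative gate in the labels, which name parental 4T1 cells as the source in one place and stained tumor in another. The paper describes the profiled fractions as sorted from the parental line. No treatment, time point or genetic change distinguished the groups, and no label tells if each replicate was sorted on its own, so p-values measure a spread that may be technical.

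In the absence of ligand, the receptor PTCH1 holds the membrane protein SMO inactive. A hedgehog ligand bound to PTCH1 and to the coreceptors GAS1, CDON or BOC releases SMO, which in the primary cilium frees GLI transcription factors from SUFU and from proteolytic processing. GLI factors then raise the transcription of Gli1, Ptch1 and Hhip, and because PTCH1 and the decoy HHIP bind ligand without passing the signal on, both of the latter act as negative feedback. These 3 transcripts are common readouts of pathway activity. In the mammary gland, GLI3 acts as a repressor during development, and hedgehog signaling is often described as running from epithelial ligand to stromal receiver cells. The comparison asked which pathway transcripts differ between SCA1+ and SCA1- tumor cells, and whether Hhip differs together with the other GLI target genes.

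Total counts ran from 13561804 to 16968215 per library. Ly6a, which encodes SCA1, had 145 to 196 counts per 4T1-Sca1+ library and 0 to 4 per 4T1-Sca1- library. The library 4T1-Sca1+ replicate 3 stood apart from the other 3 of its group, with a chi-square per degree of freedom over genes of 7.02 to 10.1 in its pairs against 1.92 to 5.68 in all other pairs within a group. The difference between the fractions also moved with the GC content of the longest transcript, from a median log2 fold change of -0.10 in the lowest of 4 equal bins of genes by GC content to 0.18 in the highest. Values without that library and with offsets corrected for GC content are given where they change a statement. Of 7 epithelial markers, Epcam, Krt8, Krt18, Krt19, Krt14 and Cdh1 were expressed in all libraries and Krt5 had at most 2 counts, with summed normalized counts of 37730 to 41050 in 4T1-Sca1+ and 34640 to 36913 in 4T1-Sca1-. Most of that sum came from Krt8 and Krt18. In 4T1-Sca1+ cells Krt8 was higher (log2 fold change 0.31 ± 0.04, adjusted p = 6.4e-06, edgeR), as was Krt18 (0.38 ± 0.04, adjusted p = 8.61e-07, edgeR). Cdh1 was lower in them, at 3264 ± 154 against 5301 ± 92.6 normalized counts (-0.69 ± 0.04, adjusted p = 6.19e-10, edgeR). Krt14 was lower too (-0.23 ± 0.06, adjusted p = 0.00346, edgeR). Of the 6 tested markers 33.3% were higher and 33.3% lower, against 31.3% and 30.2% of all tested genes. Summed normalized counts of 7 fibroblast markers were 635 to 671 in 4T1-Sca1+ and 395 to 468 in 4T1-Sca1- libraries, most of them from Pdgfra, while Col1a2 had at most 8 counts in any library. Summed counts of 8 leukocyte markers were 199 to 223 against 81.2 to 116, most of them from Cd74, and Ptprc, which encodes CD45, had at most 4 counts. Summed counts of 7 endothelial markers were 34.7 to 43.9 against 43.4 to 66.2, and 4 of them had at most 3 counts in every library. The fibroblast and leukocyte sums thus moved in the same direction as Hhip, but not every member did. Dcn had 49 raw counts in all in 4T1-Sca1+ and 4 in 4T1-Sca1- cells. Pdgfrb had 27 and 1, whereas Fap had 4 and 11. Postn, at 24.7 against 24.2 normalized counts, and Col1a2, at 19 and 18 raw counts, were alike. Among leukocyte markers, Cd74 was 125 against 65.5 normalized counts, Csf1r 39.8 against 17.8 and S100a8 38.5 against 7.52. Ptprc and Fcer1g each had 10 and 2 raw counts, and Cd3e and S100a9 each had 3 and 1, while Itgam had 10 and 11. The part of these markers in the results was not tested. In sorted bulk cells a transcript present in fewer cells and one present at a lower level per cell cannot be told apart.

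The bases just before the start site are shown for Hhip and Ptch1, as these GLI target genes differed in how they behaved. They are from RefSeq on GRCm38.p6, at chr8:80058009-80058258 for Hhip and chr13:63565736-63565985 for Ptch1, each the 250 bases before 1 start site on the minus strand, written 5′ to 3′ along the gene. Neither window overlaps an annotated exon. The Hhip window lies just beyond the end of the gene span given for it, whereas the Ptch1 window lies inside the Ptch1 span, before an internal start site. Capitals mark a full cAMP response element, the palindrome TGACGTCA, which was searched for after the Hhip window had been read.
Hhip: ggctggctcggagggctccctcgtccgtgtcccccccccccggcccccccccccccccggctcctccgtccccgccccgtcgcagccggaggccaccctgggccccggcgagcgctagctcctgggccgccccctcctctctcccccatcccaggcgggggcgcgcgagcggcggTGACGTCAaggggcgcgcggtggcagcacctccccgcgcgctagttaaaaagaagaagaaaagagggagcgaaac
Ptch1: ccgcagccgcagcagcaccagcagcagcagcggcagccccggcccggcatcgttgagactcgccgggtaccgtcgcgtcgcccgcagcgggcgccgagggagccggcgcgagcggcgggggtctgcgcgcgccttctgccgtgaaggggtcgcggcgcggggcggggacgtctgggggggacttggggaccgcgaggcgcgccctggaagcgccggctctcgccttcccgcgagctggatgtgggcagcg

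Both windows were rich in G and C, at 76.0% with 28 CpG sites for Hhip and 78.4% with 41 CpG sites for Ptch1. Windows that also take in the 50 bases after the start site were searched on both strands. The GLI consensus GACCACCCA occurred in 83 of 32851 such windows (0.253%) and in none of the 8 core genes that had one, Gli1 being the gene without. It was also found in none of the 9 windows of further GLI target genes. The cAMP response element occurred in 588 windows (1.79%). Among the 8 core genes it was found in Hhip alone, 75 to 68 bases before the start. It was searched for after that window had been read, so nothing is read from its presence there. Most windows lack it, as those of the other core genes did. A match is a run of letters and not a measured binding site, and these short windows say nothing about sites farther away.

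Hhip was the gene of the pathway that differed most between the fractions, whereas Ptch1, which shares its dependence on GLI factors, differed little. Gli1, the other common readout, had too few counts to tell a small difference from none. Hhip was 3.42-fold higher in 4T1-Sca1+ cells, Smo was 1.38-fold higher, and Gli3 and Sufu were slightly lower. Ihh had very few counts in both fractions. Of the 7 tested genes, 2 were called higher and 2 lower at an adjusted p under 0.05 (edgeR), where 31.3% of all tested genes were called higher, 30.2% lower and 61.5% in either direction. For 3 of the 7 genes the groups were fully apart, as they were for 54.7% of all tested genes. As these genes were chosen with the contrast known, nothing is read from these shares.

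Hhip (ENSMUSG00000064325), on GRCm38 chromosome 8 from 79965851 to 80058006 on the minus strand, encodes a membrane-anchored and secreted protein that binds all mammalian hedgehog ligands and keeps them from PTCH1. Its normalized counts, which are counts divided by the size factor of each library, were 2169, 2204, 2132 and 2247 in 4T1-Sca1+ replicates 1 to 4 and 639, 605, 656 and 688 in 4T1-Sca1- replicates 1 to 4. Every 4T1-Sca1+ library lay above every 4T1-Sca1- library, and the gap between the groups was many times the spread within them. The means were 2188 ± 49.5 and 647 ± 34.8 (SD, n = 4), and the log2 fold change was 1.77 ± 0.05 (standard error) with a 95% interval of 1.66 to 1.88. This placed Hhip at rank 202 of the 11717 tested genes from the highest fold change down. Its longest transcript has a GC content of 41.2%, in the lowest of the 4 bins, and with GC-corrected offsets the log2 fold change was 1.89. Without 4T1-Sca1+ replicate 3 it was 1.78.

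Ptch1 (ENSMUSG00000021466, chromosome 13, 63508328 to 63573598) encodes the receptor that ligand inactivates and is the best known target of the pathway. It had 390, 367, 404 and 440 normalized counts in 4T1-Sca1+ replicates 1 to 4 and 418, 436, 430 and 449 in the 4T1-Sca1- replicates. The groups overlapped. Their means were 400.3 ± 30.7 and 433 ± 12.7 (SD, n = 4), and the log2 fold change was -0.10 ± 0.07 with a 95% interval of -0.24 to 0.04, so a rise of the size seen for Hhip lay far outside the interval.

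Gli1 (ENSMUSG00000025407, chromosome 10, 127329882 to 127341974) encodes the GLI factor whose own transcription depends on the pathway. It was barely expressed, with 10.97, 13.8, 9.97 and 13.1 normalized counts in 4T1-Sca1+ replicates 1 to 4 against 9.55, 10.3, 8.91 and 6.85 in the 4T1-Sca1- replicates. The groups overlapped, and only 51 and 34 raw counts lay behind the 2 group means. The log2 fold change was 0.43 ± 0.29 with a 95% interval of -0.17 to 1.03, which also ends below the interval of Hhip. The exons of Gli1 share 62 bases with Arhgap9 on the opposite strand, and the use of strand in counting is not stated, so a few of these reads could belong to that gene.

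Smo (ENSMUSG00000001761, chromosome 6, 29735503 to 29761365), the signal transducer that PTCH1 holds inactive, was the most abundant of the core transcripts. It had 3823, 3685, 4298 and 3862 normalized counts in 4T1-Sca1+ replicates 1 to 4 and 2742, 3082, 2871 and 2777 in the 4T1-Sca1- replicates. The groups did not overlap, and the log2 fold change was 0.46 ± 0.05. It was 0.41 without 4T1-Sca1+ replicate 3, the highest library, and 0.30 with GC-corrected offsets, as the transcript is in the highest bin of GC content at 57.8%.

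Sufu (ENSMUSG00000025231, chromosome 19, 46396896 to 46488804) encodes the protein that retains GLI factors in the cytoplasm. It had 1012, 1012, 1159 and 1005 normalized counts in 4T1-Sca1+ replicates 1 to 4 and 1223, 1280, 1229 and 1162 in the 4T1-Sca1- replicates. The groups came within a few counts of each other at 4T1-Sca1+ replicate 3 and did not overlap. The log2 fold change was -0.21 ± 0.05, or -0.27 without that library and -0.33 with GC-corrected offsets.

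Gli3 (ENSMUSG00000021318, chromosome 13, 15463235 to 15730026) encodes the GLI factor that serves mainly as a repressor once processed. It had 893, 836, 799.9 and 735 normalized counts in 4T1-Sca1+ replicates 1 to 4 and 1030, 974, 874 and 987 in the 4T1-Sca1- replicates. The highest 4T1-Sca1+ library lay just above the lowest 4T1-Sca1- library, and the log2 fold change was -0.23 ± 0.06.

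Gas1 (ENSMUSG00000052957, chromosome 13, 60174405 to 60177365), a coreceptor tethered to the outer face of the cell membrane, was low. It had 28.3, 34.5, 39.9 and 38.5 normalized counts in 4T1-Sca1+ replicates 1 to 4 and 45.8, 47.2, 37.8 and 39.95 in the 4T1-Sca1- replicates. The groups overlapped. The log2 fold change was -0.27 ± 0.17 with a 95% interval of -0.62 to 0.08, and GC-corrected offsets gave -0.45 and brought the gene among those called lower.

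Ihh (ENSMUSG00000006538, chromosome 1, 74945315 to 74951672), a secreted ligand, had 10 raw counts in all in 4T1-Sca1+ and 10 in 4T1-Sca1- cells, with at most 5 in any library. No difference was detectable at this depth.

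**Figure D1:**
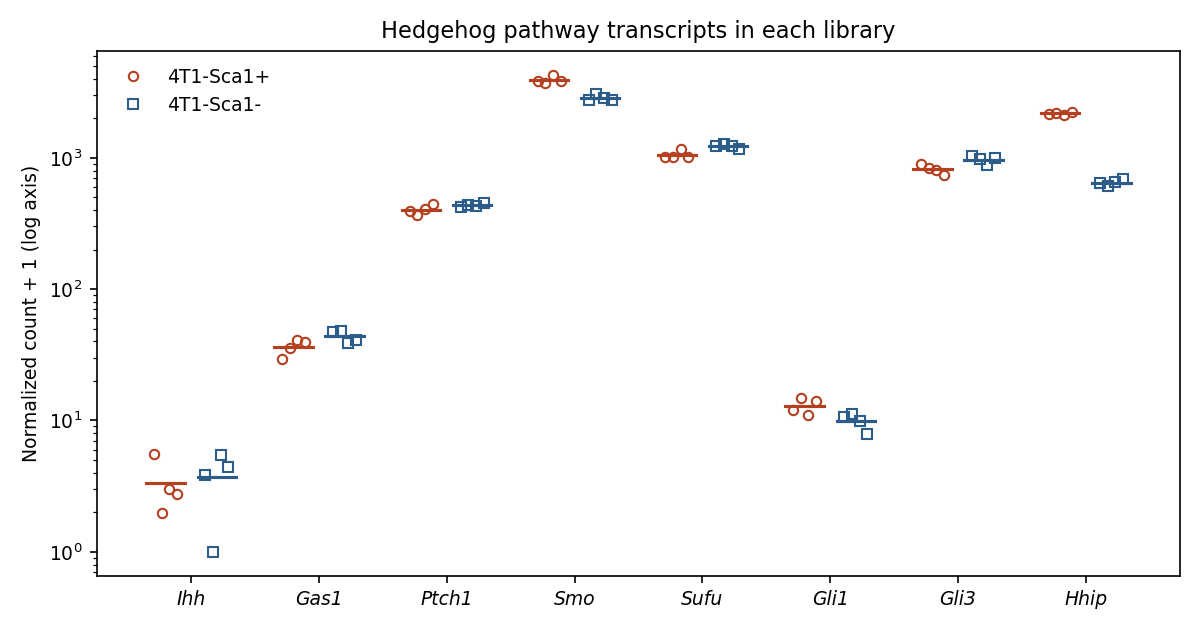
Normalized counts plus 1 on a log axis for the 8 core genes with counts, with 1 point per library, circles for 4T1-Sca1+, squares for 4T1-Sca1- and bars at the mean of the plotted values. The 4 circles of Hhip, between 2132 and 2247, stand well above its squares, between 605 and 688, while circles and squares of Ptch1, Gli1, Gas1 and Ihh overlap.

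A ratio of counts within a library does not depend on how libraries are scaled. There were 5.56, 6.01, 5.28 and 5.11 Hhip counts for each Ptch1 count in 4T1-Sca1+ replicates 1 to 4, against 1.53, 1.39, 1.53 and 1.53 in the 4T1-Sca1- replicates. Relative to Smo, the ratio was 0.496 to 0.598 against 0.196 to 0.248. Relative to Gli3 it was 2.43 to 3.06 against 0.621 to 0.750, and relative to Sufu 1.84 to 2.24 against 0.472 to 0.592. The groups were apart in each ratio. Hhip was chosen with its difference known and these genes differed far less, so the gaps mostly restate that difference. They are not separate evidence.

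**Figure D2:**
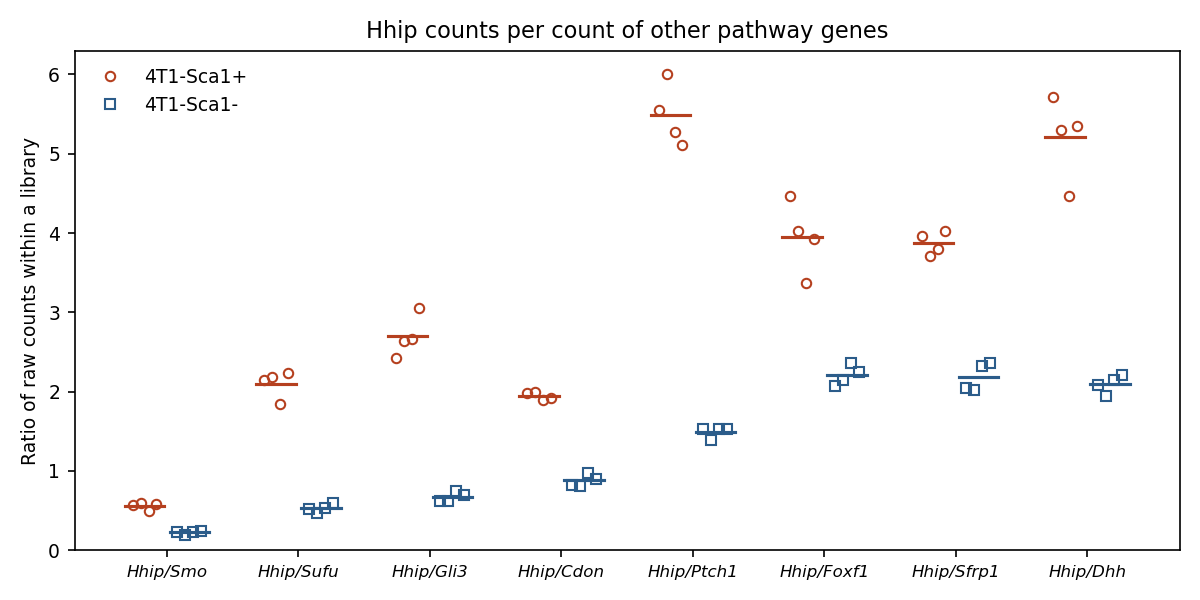
Raw counts of Hhip divided by those of 8 other pathway genes within the same library, on a linear axis from 0, with 1 point per library and bars at the group mean. The Hhip to Ptch1 ratio lies between 5.11 and 6.01 in 4T1-Sca1+ libraries and between 1.39 and 1.53 in 4T1-Sca1- libraries. The groups are apart for all 8 genes shown, which mostly restates the difference in Hhip.

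In RPKM, the level per exon length and library size over the union of annotated exons, Smo stood at 46.0 ± 2.99 in 4T1-Sca1+ and 33.4 ± 1.73 in 4T1-Sca1- cells (SD, n = 4), the highest level of the core genes in both. Hhip was next in 4T1-Sca1+ cells, at 15.9 ± 0.39, ahead of Sufu at 8.99 ± 0.617 and Gli3 at 5.62 ± 0.461. In 4T1-Sca1- cells the order was Sufu at 10.4 ± 0.399, Gli3 at 6.60 ± 0.444 and then Hhip at 4.67 ± 0.258. Ptch1 (1.86 and 2.00), Gas1 (0.788 and 0.945), Gli1 (0.158 and 0.117) and Ihh (0.0504 and 0.0578) followed in that order in both fractions, given as the 4T1-Sca1+ and then the 4T1-Sca1- mean. Neighbors in these orders had separate ranges over the 4 libraries, except Gli1 and Ihh in 4T1-Sca1- cells. Of all tested genes, 0.801% had a lower RPKM than Gli1, 20.5% a lower one than Ptch1 and 56.7% a lower one than Hhip, averaged over both groups.

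Other genes of the pathway were taken from 7 lists written by role from general knowledge, with earlier results of these data known. Calls, shares and adjusted p-values for these lists are therefore a description. Of their 71 genes, 66 had counts and 62 passed the filter. By edgeR, 28 were called higher and 11 lower in 4T1-Sca1+ cells, that is 45.2% higher and 17.7% lower, against 31.3% and 30.2% of all tested genes. Their median log2 fold change was 0.12, against 0.01 over all tested genes. Without 4T1-Sca1+ replicate 3 the counts were 29 and 10, and with GC-corrected offsets 31 and 7.

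Among ligands, Shh was not analysed here. Dhh, which encodes desert hedgehog, had more counts than Ihh, the other ligand analysed. It had 379, 416, 477 and 420.1 normalized counts in 4T1-Sca1+ replicates 1 to 4 and 308, 311, 305 and 312 in the 4T1-Sca1- replicates, without overlap. It rose by 0.47 ± 0.07 on the log2 scale (adjusted p = 2.55e-05, edgeR). The exons of Dhh share 546 bases with Rhebl1 on the same strand, so its counts are uncertain to that extent. Of the 5 genes for ligand modification and release, 3 were tested. Of these, 2 were higher and 1 lower, where 31.3% of all tested genes were higher and 30.2% lower. Scube3, which encodes a secreted protein of the family that helps release ligand, was higher (1.43 ± 0.19, adjusted p = 4.01e-06, edgeR) from 20.4 ± 3.66 to 54.4 ± 8.49 normalized counts, and 1 more of these genes was higher. Hhat, the acyltransferase that adds palmitate to hedgehog ligands, was lower (-0.27 ± 0.11, adjusted p = 0.0376, edgeR). That call was lost without 4T1-Sca1+ replicate 2 (-0.27) or 3 (-0.21), without 4T1-Sca1- replicate 2 (-0.25), 3 (-0.23) or 4 (-0.27), with library totals alone (-0.23), by DESeq2 (-0.28) and with GC-corrected offsets (-0.22), and adjusted p over the settings that kept all libraries ran from 0.0294 to 0.0778. With the replicate number as a block it was lost as well (-0.27, adjusted p = 0.0559).

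Among the other receptors, the coreceptor Cdon had 1093, 1102, 1123 and 1170 normalized counts in 4T1-Sca1+ replicates 1 to 4 and 776, 742, 670.1 and 766 in the 4T1-Sca1- replicates, again without overlap. It rose by 0.62 ± 0.05 on the log2 scale (adjusted p = 3.8e-08, edgeR). The related coreceptor Boc did not pass (0.09 ± 0.10, 95% interval -0.13 to 0.31, adjusted p = 0.485, edgeR). Lrp2, an endocytic receptor that can bind hedgehog ligand, had at most 2 counts in any library and was not tested. Whether the difference in Cdon exceeds that in Boc was not tested.

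Of the 7 tested genes for regulators of SMO, 3 were higher (42.9%) and 0 lower, and 4 did not pass, where 31.3% of all tested genes were higher and 30.2% lower. Evc, a protein at the base of the cilium that binds SMO, had the largest of these differences (0.41 ± 0.07, adjusted p = 7.17e-05, edgeR), at 498 ± 35.5 against 379 ± 26.6 normalized counts and without overlap between the groups. With GC-corrected offsets it was 0.27. Of the 17 genes for kinases, ubiquitin ligases and ciliary proteins that act on GLI factors, 6 were higher and 5 lower, or 35.3% and 29.4%, close to the 31.3% and 30.2% of all tested genes. Dzip1, a protein of the ciliary base, was highest (0.69 ± 0.07, adjusted p = 1.37e-07, edgeR) and Csnk1a1, the casein kinase that phosphorylates GLI proteins, lowest (-0.37 ± 0.05, adjusted p = 2.49e-06, edgeR). Of the 20 genes for ciliary transport, 10 were higher and 2 lower, or 50% and 10%, against the same shares of all tested genes. Ift27, a subunit of the transport complex, was highest (0.97 ± 0.16, adjusted p = 6.23e-05, edgeR), from 33.4 ± 3.54 to 65.0 ± 10.5 normalized counts. Ift88 was lower (-0.28 ± 0.10, adjusted p = 0.0215, edgeR), a call lost without 4T1-Sca1- replicate 1 (-0.24) or 3 (-0.24), with library totals alone (-0.23) and with GC-corrected offsets (-0.17), with adjusted p over the settings that kept all libraries from 0.016 to 0.106.

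The list of genes often cited as GLI targets bears on whether Hhip moved with others of its kind. Of its 16 genes, 12 were tested, of which 5 were higher, 3 lower and 4 did not pass, and the median log2 fold change was 0.14. That is 41.7% higher, 25.0% lower and 66.7% in either direction, near the 31.3%, 30.2% and 61.5% of all tested genes. Sfrp1, which encodes a secreted WNT antagonist, had 547, 595, 561 and 558 normalized counts in 4T1-Sca1+ replicates 1 to 4 against 312, 299.8, 282 and 291 in the 4T1-Sca1- replicates. It was higher by 0.94 ± 0.06 (adjusted p = 7.37e-10, edgeR), without overlap between the groups. Foxf1, a forkhead factor of mesenchymal tissue, had 485, 547, 633 and 573 against 309, 281, 277 and 307 normalized counts, in the same order of replicates. Its difference was 0.94 ± 0.08 (adjusted p = 1.83e-08, edgeR), or 0.88 without 4T1-Sca1+ replicate 3. Foxl1, which lies beside Foxf1 on chromosome 8 (121127940 to 121130644, against 121084386 to 121088144), was low and also higher, at 33.3 ± 5.46 against 16.5 ± 3.80 normalized counts, a difference of 1.01 ± 0.22 on the log2 scale (adjusted p = 0.000661, edgeR). The groups did not overlap for any of these 3 genes. The same held for 9 of the 12 tested genes of the list (75.0%), lower ones included, and for 54.7% of all tested genes. Each of the 3 rose less than Hhip by its log2 fold change, a difference that was not tested.

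Ccnd1, which encodes cyclin D1 and was by far the most abundant gene of the list at 37133 ± 1729 against 27574 ± 795 normalized counts, was higher by 0.44 ± 0.04 (adjusted p = 8.52e-08, edgeR). Its exons share 1100 bases with a counted gene on the opposite strand. The apoptosis inhibitor Bcl2 was higher by 0.28 ± 0.06 (adjusted p = 0.000497, edgeR). Cyclin D2 (Ccnd2) went the other way (-0.32 ± 0.06, adjusted p = 0.000133, edgeR), as did the Notch ligand Jag2 (-0.52 ± 0.07, adjusted p = 4.9e-06, edgeR). Jag2 was -0.60 without 4T1-Sca1+ replicate 3 and -0.80 with GC-corrected offsets. The transcriptional repressor Prdm1 was lower (-1.39 ± 0.30, adjusted p = 0.000619, edgeR) at 9.31 ± 3.59 against 24.6 ± 6.57 normalized counts. Foxm1 (0.08 ± 0.04, adjusted p = 0.095), Rab34 (0.13 ± 0.06, adjusted p = 0.0917), Hsd11b2 (0.15 ± 0.24, adjusted p = 0.607) and Cdk6 (-0.01 ± 0.07, adjusted p = 0.924) did not pass by edgeR. Foxm1 passed with library totals alone (0.12), as did Rab34 (0.17), and Rab34 also passed without 4T1-Sca1+ replicate 2 (0.17). Mycn had at most 1 count in any library, and Bmp4, Nkx2-2 and Foxa2 were not analysed here.

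**Figure D3:**
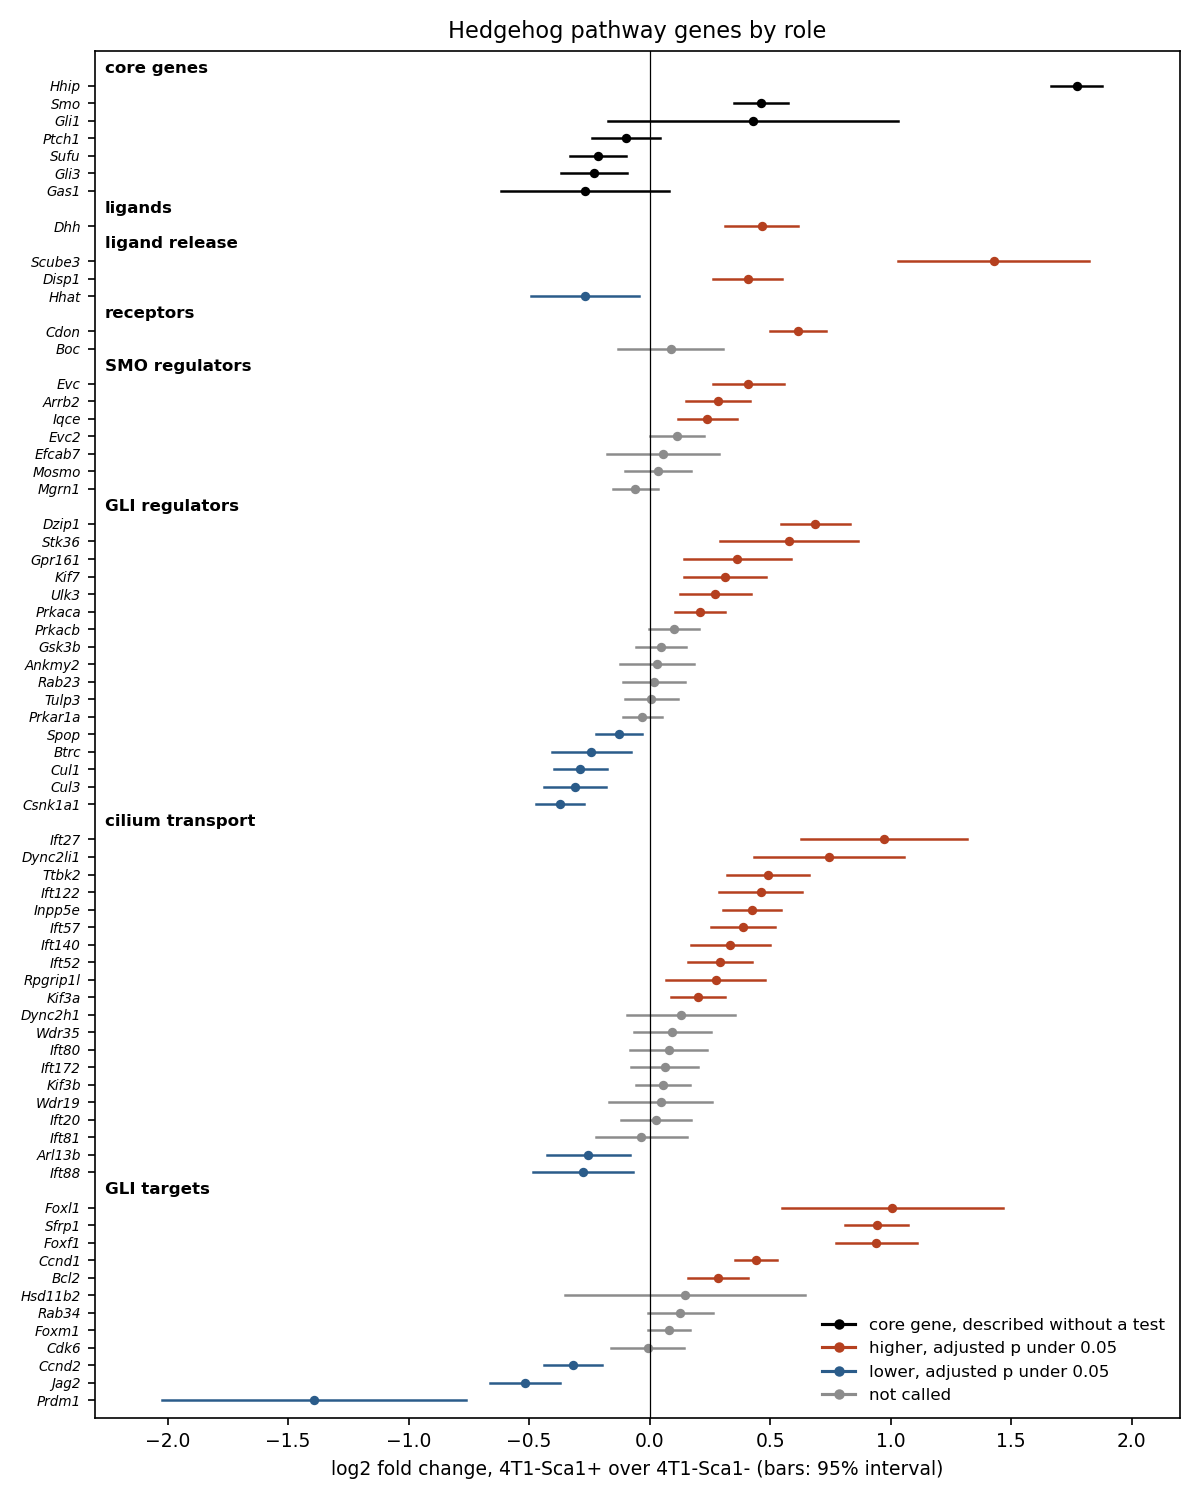
Log2 fold changes (4T1-Sca1+ over 4T1-Sca1-, edgeR) with 95% intervals for the 7 tested core genes, in black, and for 62 tested genes of the 7 role lists, in red where called higher, blue where called lower and gray otherwise. The point of Hhip, at 1.77, lies to the right of all other points, while Ptch1 sits at -0.10 and the GLI targets spread from -1.39 (Prdm1) to 1.01 (Foxl1).

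The genes whose profile over the 8 libraries was closest to that of Hhip were sought among the 11314 tested genes whose mean reached 10 normalized counts in either group. The measure was the root mean square difference in log2 CPM after centering each gene on its own mean, so it takes in the difference between the groups, which the choice of Hhip already used. The closest 5 were Trabd2b (0.076), Lrrc75b (0.0856), Olfm1 (0.0866), Tslp (0.0881) and Aox1 (0.0949). Trabd2b encodes a membrane protease that inactivates WNT proteins, Tslp an epithelial cytokine and Aox1 an aldehyde oxidase, and none of the 5 is on the pathway lists. On the same scale Sfrp1 (0.422) ranked 424, Foxf1 (0.433) 449, Smo (0.664) 1664, Gli1 (0.726) 2323 and Ptch1 (0.939) 6993. For genes this far from Hhip the measure mostly follows the gap in log2 fold change, so these ranks add little to it.

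Genes next to Hhip on chromosome 8 had smaller differences, in both directions. Within 1 Mb on either side, 10 genes were tested, of which 2 were higher, 4 lower and 4 did not pass, a share of calls like the 61.5% of all tested genes, with log2 fold changes from -0.75 to 0.36. The nearest tested genes were Anapc10, a subunit of the anaphase-promoting complex (-0.51 ± 0.10, adjusted p = 0.000195, edgeR), on one side and Smarca5, a chromatin remodeler (-0.28 ± 0.06, adjusted p = 0.000332, edgeR), on the other. This window was chosen after the value of Hhip was known.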

How the data were processed

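The authors deposited raw counts per Ensembl gene for 8 libraries and a second table of normalized signal. The deposited signal was the counts divided by 1 DESeq2 size factor per library (largest relative difference 5.11e-15). The submitters' processing notes name cutadapt 1.16 and STAR 2.5.3a and the builds GRCm38 and mm10. The counting tool, annotation and use of strand are not given in the sources used here. Symbols, positions, exon lengths and GC content came from GENCODE M21 (GRCm38), which matched 16202 of 16341 genes. Promoter windows came from RefSeq (GRCm38.p6).

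Counts were tested with edgeR 4.0.16 in R 4.3.3 (filterByExpr, TMM, quasi-likelihood test, two-sided, no covariate), with Benjamini-Hochberg adjustment over 11717 tested genes and a threshold of 0.05. The standard error was the absolute log2 fold change divided by the square root of F, and 95% intervals used the t quantile of the fit. Log2 CPM used a prior count of 2. The tests were checked on simulated counts. Reads lack molecular identifiers. The standard errors take in counting error and the spread between the 4 libraries of a group, which may be technical.

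The 9 core genes and the role lists were chosen with earlier results of these data known, and some genes are not reported here and were left out of the lists. Named from the other lists were all ligands, receptors and GLI targets and, of the rest, the highest and lowest called gene with a mean of at least 10 normalized counts in either group. Alternatives were DESeq2 size factors, library totals alone, testing without the filter, a minimum of 10 counts per library, limma-voom (limma 3.58.1), DESeq2 1.42.0, replicate number as a block, the deposited signal as log2(value + 1) in limma, a stricter threshold of 0.01, a prior count of 0.5 and leaving out each library. GC-corrected offsets were added after seeing the data.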

Additional observations from a re-analysis of the deposited data

Results flagged for a closer look

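In 3 of 58 groups of 4 libraries, over the tested core genes and named pathway genes, 1 library lay farther from the other 3 than Dixon's 95% limit allows, where chance gives about 2.9. Sufu had 1159 normalized counts in 4T1-Sca1+ replicate 3, while the rest of the group had 1005 to 1012. Jag2 had 676 in the same library, against 541 to 552. These values fall on the library that stood apart over all genes, and the part of GC content in them was not tested gene by gene. Foxl1 had 41.4 normalized counts in 4T1-Sca1+ replicate 2, against 29.9 to 31.1 in the other 3.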

How the results depend on the processing

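Over 29 genes and the alternatives that refit them (all but the stricter threshold and the prior count), 462 of 491 single-gene values kept the direction and the side of the threshold, including each one of Hhip (1.76 to 1.89, and 1.74 to 1.80 across fits that left out one library). The number of core genes called higher stayed at 2, and 2 or 3 were lower. Lower pathway genes numbered 6 at an adjusted p under 0.01 and 7 with GC-corrected offsets, against 11, and 9 to 11 without single libraries. Signs turned among genes that were not called: Cdk6 was 0.034 with library totals alone, 0.0025 with at least 10 counts in every library, 0.058 with GC-corrected offsets and -0.060 to 0.035 without single libraries. GC-corrected offsets gave -0.028 for Boc, -0.0063 for Foxm1, -0.087 for Rab34 and -0.017 for Hsd11b2, which ran from -0.013 to 0.26 without single libraries. The cause was not tested. Of the 5 genes closest to Hhip, 4 remained at a prior count of 0.5. Adding a replicate block left 3605 genes higher and 3452 lower, against 3668 and 3538, and of those 29 genes only Hhat changed its call. Deviations of same-numbered libraries correlated at 0.0957, -0.15, -0.0339 and -0.0011, which gives no pairing. Depth limits Ihh, Lrp2 and Mycn, which were not tested, and Gli1.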
